A study of Homo sapiens with 24 samples.

Results

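The regions described here are the subtelomeric binding peaks of KRAB-containing zinc finger proteins (KZFPs), that is, peaks with a score above 80 whose midpoint lay within 1 Mb of either end of the assembled sequence of human chromosomes 1 to 22 (hg19). The lists of 21 KZFPs held 31717 peaks with such a score, 29971 of them on chromosomes 1 to 22, and 613 of these, or 2.05%, were subtelomeric. All libraries were made in HEK293T, a line derived from human embryonic kidney and carrying the SV40 large T antigen, in which each cell line was transduced to overexpress 1 HA-tagged KZFP, selected with puromycin and induced with doxycycline at 1 µg/mL. Chromatin was immunoprecipitated with an antibody against HA and profiled for 15 KZFPs by ChIP-exo, a form of ChIP that digests the DNA back to the bound protein, and by ChIP-seq for 6 KZFPs and for a control without a KZFP in its label, 293Tctrl. Each KZFP had 1 library. No error between replicates could therefore be given, and the peaks are those of tagged, overexpressed proteins. The score is that of the peak caller MACS, 10 times the negative log10 of a p-value within 1 library and its control, so it ranked peaks within a list and was not compared between KZFPs. Intervals in brackets are exact Clopper-Pearson 95% intervals of a share and cover counting error only.

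Human chromosomes end in arrays of the hexamer TTAGGG, followed inwards by subtelomeric blocks that were copied from one chromosome end to another, and then by sequence of single copy that is rich in genes. KZFPs carry a KRAB domain, which in most members recruits the corepressor KAP1 (TRIM28), and an array of C2H2 zinc fingers that reads DNA, and many of them bind families of transposable elements. Because blocks of several ends are nearly identical, a read from one block may match another, and peaks in such copies are not independent measurements; how many reads were shared between copies was not tested. The windows held 42.6 Mb of assembled sequence, or 1.59% of the assembled bases of these chromosomes. In hg19 the short arms of the acrocentric chromosomes 13, 14, 15, 21 and 22 begin with 9.41 to 20 Mb of unassembled sequence, so that these 5 of the 44 ends are the inner edge of a gap and not a telomeric end. They held 72 of the 613 peaks, and the other 39 ends held 541. These 39 had 0 to 110000 bp of unassembled sequence outside them. Distances at all ends were therefore counted from the edge of the assembled sequence, which need not be the telomere.

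The sequences that recur through the results come first, each read from the hg19 reference. For ZNF251, ZNF160, ZFP28 and ZNF724P, the 10-base word most enriched in the centres of their peaks away from the chromosome ends is in capitals, within the highest-scoring subtelomeric peak that held it or, for ZNF251, within blocks copied between ends. The word was CTAAGTGAAA for ZNF251, AGAAGAAAGA for ZNF160, AAGAAATAGA for ZFP28, CCTCAGGACC for ZNF578 and AAAGTCCAAG for ZNF724P, searched on both strands.
ZNF251, OR4F block on 6q, chr6:170951107-170951186, minus strand: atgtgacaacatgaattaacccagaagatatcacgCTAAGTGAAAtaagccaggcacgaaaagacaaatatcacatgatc
ZNF251, OR4G block on 15q, chr15:102485738-102485817, minus strand: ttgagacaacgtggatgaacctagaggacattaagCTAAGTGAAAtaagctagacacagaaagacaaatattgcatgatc
ZNF160, 15q, chr15:102136967-102137046, minus strand: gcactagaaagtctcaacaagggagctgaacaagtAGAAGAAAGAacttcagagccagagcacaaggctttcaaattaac
ZFP28, BOK on 2q, chr2:242496320-242496399, minus strand: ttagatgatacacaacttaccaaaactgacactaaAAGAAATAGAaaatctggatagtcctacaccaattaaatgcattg
ZNF724P, 22q, chr22:51087280-51087359, plus strand: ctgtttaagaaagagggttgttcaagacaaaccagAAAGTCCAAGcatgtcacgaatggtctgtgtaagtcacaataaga

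The second set shows GC-rich sequence under peaks of ZNF763 and under regions shared by several KZFPs, ZNF251 among them. Capitals mark CpG dinucleotides. The first stretch is the middle of a peak over DUX4L9 on 4q, a D4Z4 copy apart from the array. The others are the middle of each of 2 regions where the peaks of 4 KZFPs overlapped.
ZNF763, D4Z4 on 4q, chr4:190943144-190943293, plus strand: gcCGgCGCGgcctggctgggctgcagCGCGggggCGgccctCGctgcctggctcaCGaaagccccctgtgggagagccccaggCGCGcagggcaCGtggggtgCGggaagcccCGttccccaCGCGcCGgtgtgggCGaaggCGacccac
4 KZFPs, FOXL3 on 7p, chr7:331043-331192, plus strand: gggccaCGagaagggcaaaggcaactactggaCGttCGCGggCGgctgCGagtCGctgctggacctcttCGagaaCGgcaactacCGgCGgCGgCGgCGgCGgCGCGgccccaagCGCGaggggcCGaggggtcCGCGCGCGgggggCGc
4 KZFPs, MIR3648 and MIR3687 on 21p, chr21:9826513-9826662, plus strand: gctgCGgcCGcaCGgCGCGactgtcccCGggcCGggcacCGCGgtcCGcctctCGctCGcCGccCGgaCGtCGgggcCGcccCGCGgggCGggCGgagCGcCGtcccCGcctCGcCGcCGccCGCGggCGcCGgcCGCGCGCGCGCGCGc

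Subtelomeric peaks were found for 18 of the 21 KZFPs, and most of them belonged to 1 protein. ZNF251 had 404, or 65.9% of all, ZNF160 had 91 and ZFP28 had 30, so that these KZFPs together held 525 of the 613. The number of peaks followed the size of the lists, since ZNF251 had 19916 peaks on chromosomes 1 to 22 and ZNF160 had 5896. As a share of its own list, 2.03% [1.84 to 2.23] of the ZNF251 peaks and 1.54% [1.24 to 1.89] of the ZNF160 peaks were subtelomeric, beside the 1.59% of assembled bases that lay in the windows. The interval lay above that share of bases for 6 of the 17 KZFPs with at least 20 peaks, below it for 0, and held it for 11. The 6 were ZNF251, ZFP28 with 30 of 1067 peaks or 2.81% [1.9 to 3.99], ZNF724P with 14 of 478 or 2.93% [1.61 to 4.87], ZNF763 with 16 of 210 or 7.62% [4.42 to 12.1], ZNF446 with 7 of 89 or 7.87% [3.22 to 15.5] and ZKSCAN4 with 9 of 83 or 10.8% [5.08 to 19.6]. The last 3 had the highest shares of the 6 but rested on 7 to 16 peaks. Over all deposited peaks, without the score threshold, the share was 3.09% [1.84 to 4.84] for ZNF446, 4.79% [3.23 to 6.8] for ZKSCAN4 and 5.05% for ZNF763, beside 6.16% [2.86 to 11.4] for 293Tctrl at that setting.

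**Figure D1:**
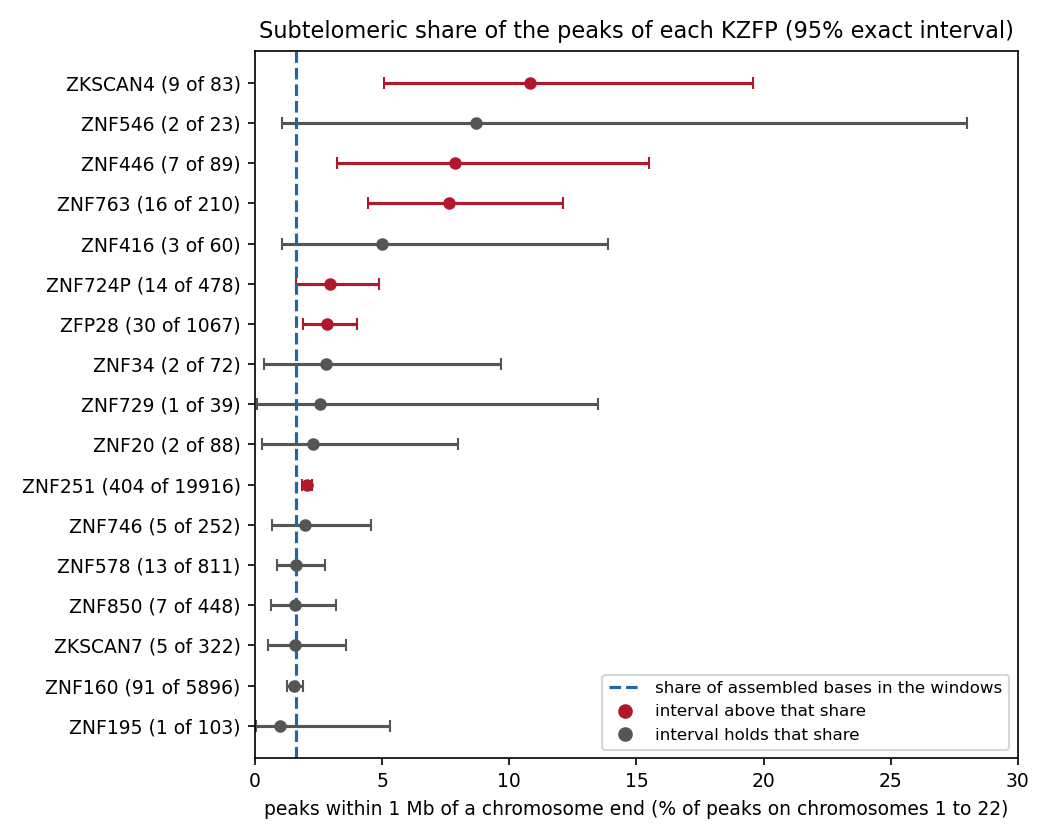
Share of each list's peaks on chromosomes 1 to 22 that were subtelomeric, in percent, for the KZFPs with at least 20 such peaks. Points give the share, bars its exact 95% interval for counting error, and the line the 1.59% of assembled bases in the windows; ZKSCAN4 stood at 10.8% and ZNF160 at 1.54%.

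Some of these shares rested in part on peaks on acrocentric short arms or in a few repeated or related sequences. All 6 stayed above the share of bases without the acrocentric short arms, and also with copies of 1 sequence counted once. Of the 7 ZNF446 peaks, 4 lay on 1p over MTND1P23, MTND2P28, MTCO1P12 and MTATP6P1, pseudogenes of mitochondrial genes in a nuclear insertion of mitochondrial DNA, with scores of 84.6 to 142.28, and 0 of its other peaks lay over such pseudogenes. Without these 4 the ZNF446 share was 3.53% and its interval held the share of bases. Whether reads of mitochondrial DNA contributed was not tested; the lists held 0 KZFP peaks above 80 on the mitochondrial chromosome. For ZNF763, 6 of the 16 peaks lay over D4Z4 repeats, including a separate copy at DUX4L9, and its share without these 6 was 4.9%. For ZKSCAN4, 4 of the 9 peaks lay on acrocentric short arms, and 5 peaks, or 6.02%, were left without these ends. The ZNF251 share became 1.86% without the acrocentric short arms, where the windows held 1.42% of bases, and 1.85% when peaks in copies of 1 sequence were counted once.

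The smaller counts could not be told apart from the share of bases. ZNF578 had 13 of 811 peaks in the windows, or 1.6% [0.856 to 2.73], ZNF850 had 7 of 448, ZNF746 and ZKSCAN7 had 5 each and ZNF416 had 3. ZNF34, ZNF546 and ZNF20 had 2 each, of which ZNF546 had only 23 peaks in all and an interval of 1.07 to 28%. ZNF195, ZNF729 and ZKSCAN8 had 1 each, while ZNF256 had 0 of 2, ZNF597 0 of 6 and ZNF213 no peak above 80 on chromosomes 1 to 22. The 6 ChIP-seq KZFPs together gave 8 of the 613.

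The 293Tctrl library had 0 subtelomeric peaks of 4 with a score above 80, a number that allows a share of up to 60.2%. Over all its deposited peaks, which start at a score of 50, 9 of 146 or 6.16% [2.86 to 11.4] lay in the windows, with scores of 50.23 to 77.26. Of these, 6 stood on acrocentric short arms. At 21p they scored 50.47, 62.5, 56.29, 77.26 and 54.15 (over MTCO1P1, a pseudogene of a mitochondrial gene), and at 14p 55.76. The others were in FRG1-DT on 4q with 55.86, between genes on 6q with 58.59, and between genes on 11q with 50.23. None of the 613 KZFP peaks overlapped a control peak. The control is a ChIP-seq library, so the background of the ChIP-exo libraries was not measured in it.

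Each of the 44 ends carried at least 1 peak, but their numbers ranged from 2 to 33 with a median of 14. The 5 ends with the most were 12q and 14p with 33 each, 19q with 23, and 4p and 5q with 22 each. ZNF251 provided 29 of the 33 at 12q, 22 of the 23 at 19q, 21 of the 33 at 14p, 15 of the 22 at 5q and 13 of the 22 at 4p. The ends with the fewest peaks had 2 each. On 3p both were of ZNF251, with scores of 92.74 and 126.7, and 13q was the 1 end without a ZNF251 peak and held 1 of ZFP28 at 207.2 and 1 of ZNF160 at 94.23. Without ZNF251 the median was 4, 5p and 14p had 12 each, 9q and 21p had 11, 4q and 22p had 10, and 3p and 6p had 0.

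**Figure D2:**
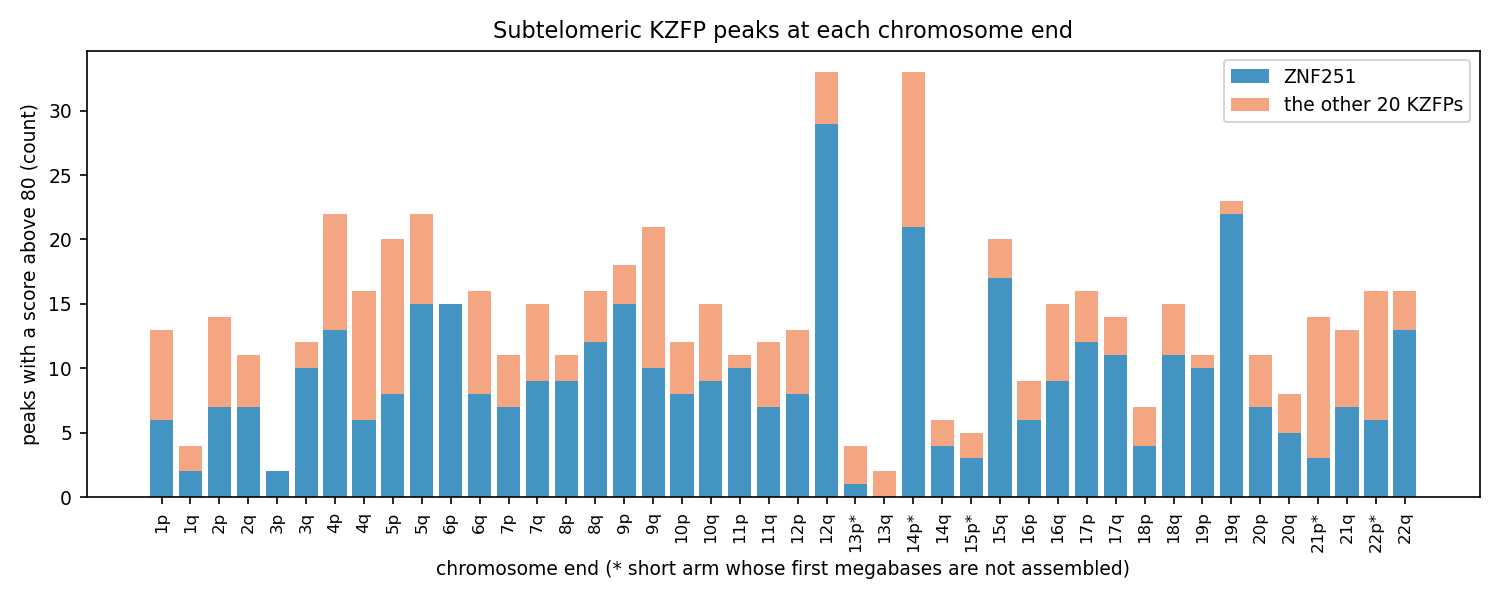
Number of subtelomeric peaks at each of the 44 chromosome ends, with ZNF251 and the other 20 KZFPs as stacked bars and an asterisk at the acrocentric short arms. The counts ranged from 2 at 3p and 13q to 33 at 12q and 14p, and ZNF251 made up most of the tallest bars.

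The number of ZNF251 peaks at an end went weakly with its gene content. Over the 44 ends, Spearman's rho of ZNF251 peaks per Mb was 0.36 with the number of transcript starts, 0.32 with the number of zinc finger genes and 0.28 with the GC content. For the pooled peaks of the other KZFPs these values were −0.12, −0.05 and −0.03. The ends share each library and its depth, and gene number and GC content go together along chromosomes, so these values are a description only.

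Along the 39 ends other than the acrocentric short arms, peak density was highest next to the edge of the assembled sequence, on few peaks. The outermost 10 kb held 11 peaks, 10 of them of ZNF251, which made 28.2 peaks per Mb. Farther in, the density was 13.7 to 18.6 per Mb up to 750 kb from the end, 9.85 per Mb between 750 kb and 1 Mb, and 9.42 to 11.2 per Mb between 1 and 10 Mb, beside 11.2 per Mb over chromosomes 1 to 22 as a whole. ZNF251 had 25.6 peaks per Mb in the outermost 10 kb, 9.12 to 13.8 between 10 and 750 kb and 6.39 in the last 250 kb of the windows, beside 7.42 per Mb over whole chromosomes. ZNF160 had 0 peaks in the outermost 10 kb and 1.55 to 2.66 per Mb in the rest of the windows, beside 2.2 overall. The remaining KZFPs together had 1.78 to 4.57 per Mb within the windows and 1.55 overall.

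**Figure D3:**
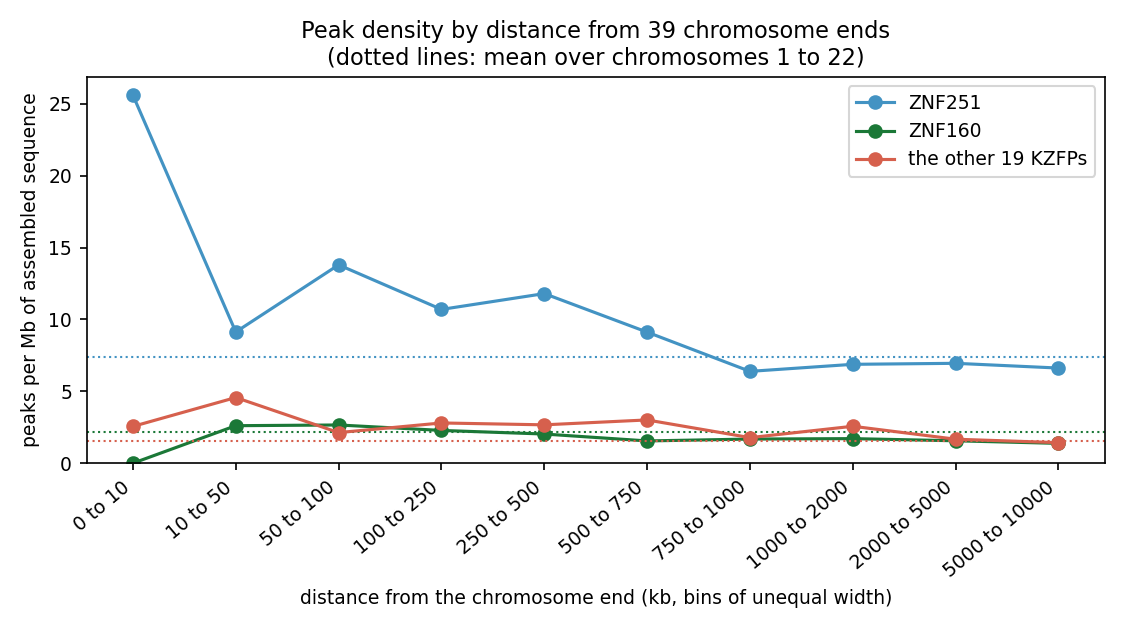
KZFP peaks per Mb of assembled sequence by distance from the edge of that sequence, over the 39 ends other than the acrocentric short arms. Lines show ZNF251, ZNF160 and the other 19 KZFPs, in bins of unequal width. Dotted lines give the mean over chromosomes 1 to 22. ZNF251 fell from 25.6 per Mb in the outermost 10 kb, where it had 10 peaks, to 6.39 per Mb between 750 kb and 1 Mb.

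Few of the peaks lay on telomere-type repeats. Tandem TTAGGG, 2 or more copies on either strand, occurred in 6 of the 613 peaks (0.979%), in 2 of the 29358 other peaks (0.00681%) and in 0.0267% of all peaks together. The same repeat was present in 0.138% of 499-bp tiles of the windows, a length chosen as the median of the peaks. ZKSCAN4 had the longest stretch, since its top-scoring subtelomeric peak, at 1114.24, lay on the first bases of 5p over 183 tandem copies; no other KZFP had a peak above 80 there. The next run, 18 tandem copies beside an assembly gap on 12p and 35.5 kb from the end, lay under peaks of ZKSCAN4 at 366.81, ZNF160 at 139.01 and ZNF446 at 124.74. A ZNF251 peak of 861.99 nearby held 3 tandem copies, and a ZNF251 peak of 135.9 on 9p held 5. Of the 18 ends whose last 2 kb of assembled sequence held at least 5 tandem copies, 6 had a KZFP peak in those 2 kb. Of the other 26 ends 1 had. Among these terminal peaks, only those of ZKSCAN4 on 5p and ZNF251 on 9p held tandem TTAGGG themselves. The 5 peaks closest to an end were of ZNF251 on 16p at 0.649 kb with a score of 248.65, ZNF251 on 9p at 0.825 kb, ZKSCAN4 on 5p at 0.918 kb, and ZNF251 on 2p at 0.945 kb with 102.78 and on 21q at 0.96 kb with 88.21.

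A match at another chromosome end was more frequent for peaks in the windows than for peaks elsewhere. A stretch of at least 100 bp with at least 90% identity at another chromosome end was found for 198 of the 613 peaks, or 32.3% [28.6 to 36.2], for 14.8% of the other peaks and for 15.1% of all. For ZNF251 the shares were 34.4% and 14.1%, and for ZNF160 27.5% and 9.49%. On fewer peaks, ZNF578 with 38.5% in the windows and 58.9% outside, ZNF446 with 28.6% and 56.1%, and ZNF850 with 0% and 14.1% had the lower share in the windows. Matches at 5 or more other ends were found for 111 of the 613 peaks (18.1%) and 9.68% of the other peaks. Copied blocks and dispersed repeats were not separated in these counts. Matches were sought within the windows themselves, and the share of window sequence with such a match was not computed. The counts therefore do not separate the peaks from the sequence around them. A stricter grouping, by a match over at least 80% of the shorter peak, put 76 of the 613 peaks into 22 families, of which 19 held peaks of 1 KZFP only and 7 lay on acrocentric short arms only. ZNF251 had 51 of the 76 and ZNF160 had 10.

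The best example was a block with OR4F genes and pseudogenes, which encode or derive from olfactory receptors. ZNF251 had a peak at the same place in each of 9 copies of this block, on 1p (2 copies), 5q, 6p, 6q, 8p, 11p, 15q and 19p, at 2128 to 2232 bp from the start of an OR4F gene or pseudogene. The 9 scores were 1507.63 and 903.94 on 1p, 1678.89 on 5q, 1258.04 on 6p, 1801.45 on 6q, 1211.87 on 8p, 1086.05 on 11p, 971.5 on 15q and 964.25 on 19p. The peak sequences were 98.9 to 100% identical. No further copy was found elsewhere on chromosomes 1 to 22, and all 9 peaks held the ZNF251 word without a mismatch. At 19.8 to 24.9 kb from this site, a second ZNF251 peak stood in all 9 blocks with lower scores, 84.83 to 276.86 with a median of 218, and each of these carried the word with the same substitution, C1T, which gives the base of the word, its position from the 5′ end of the word and the base of the site. Both sites therefore differed in score without overlap in every copy of the block.

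Other copied blocks gave the same arrangement at fewer ends. A ZNF251 peak lay in all 3 copies of a block with OR4G pseudogenes, with scores of 354.15 on 1p, 406.54 on 19p and 459.37 on 15q and the word without a mismatch in each. The stretches printed above for the OR4F and OR4G blocks resemble each other along their length, not only at the word. Whether both belong to the same dispersed repeat was not tested. At the OR4G pseudogenes themselves ZNF251 had peaks of 228.6, 137.24 and 173.51 on 1p, 19p and 15q. In the block of FAM157 genes all 4 copies had a ZNF251 peak, with 216.91 on 3q, 158.34 on 7p, 268.51 on 9q and 214.7 on 16q. In the same block, 30.7 to 111 kb from the end, ZNF160 had peaks of 91.76 on 3q and 121.69 on 16q and ZKSCAN4 1 of 134.75 on 9q. In some families not all copies had a peak. Of the 6 copies of the telomere-type family of ZKSCAN4, ZNF160 and ZNF446, all at ends, 2 had a peak above 80. Other such families also lay inside the chromosomes. For a family of 5 ZNF251 peaks on 3q, 9q, 11p, 16q and 21q, with a median identity of 91.4%, the 3q member matched 51 places, the members on 11p and 21q not among them. Of these, 3 of the 9 at chromosome ends and 12 of the 42 elsewhere had a peak above 80. For a family of 3 ZNF578 peaks on 4p, 8q and 21q, the 8q member matched 396 places, and 3 of the 8 at ends and 184 of the 388 elsewhere had one. On the acrocentric short arms, a ZNF251 peak of 989.22 on 14p had a copy of 97.5% identity on 22p, at 1800.95.

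The word that ZNF251 peaks share was less frequent at the ends than elsewhere and marked higher scores in both. It stood in the central 300 bp of 57 of 404 subtelomeric ZNF251 peaks, or 14.1% [10.9 to 17.9], of 19.1% of the other ZNF251 peaks on which it was found, and of 0 of the 209 subtelomeric peaks of other KZFPs. All 300-bp tiles of the windows held it in 0.19% of cases, and flanks 1500 bp from the subtelomeric peaks in 0.124%. Counting the whole peak, the 59 peaks with the word had a median score of 364, the 87 with 1 mismatch 194 and the 258 with more mismatches 152, and 42.4%, 17.2% and 12.8% of them, respectively, exceeded 500. Away from the ends the medians were 284 with the word and 168 without. The median lengths of these groups were 557, 469 and 488 bp, so the group with the word also had the longest peaks. Among the 353 peaks outside the families the word occurred in 45, or 12.7%. The medians by mismatch count copies as separate peaks, and the 9 OR4F-block peaks, at 903.94 to 1801.45, are among the 59. These medians were not computed without the families.

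**Figure D4:**
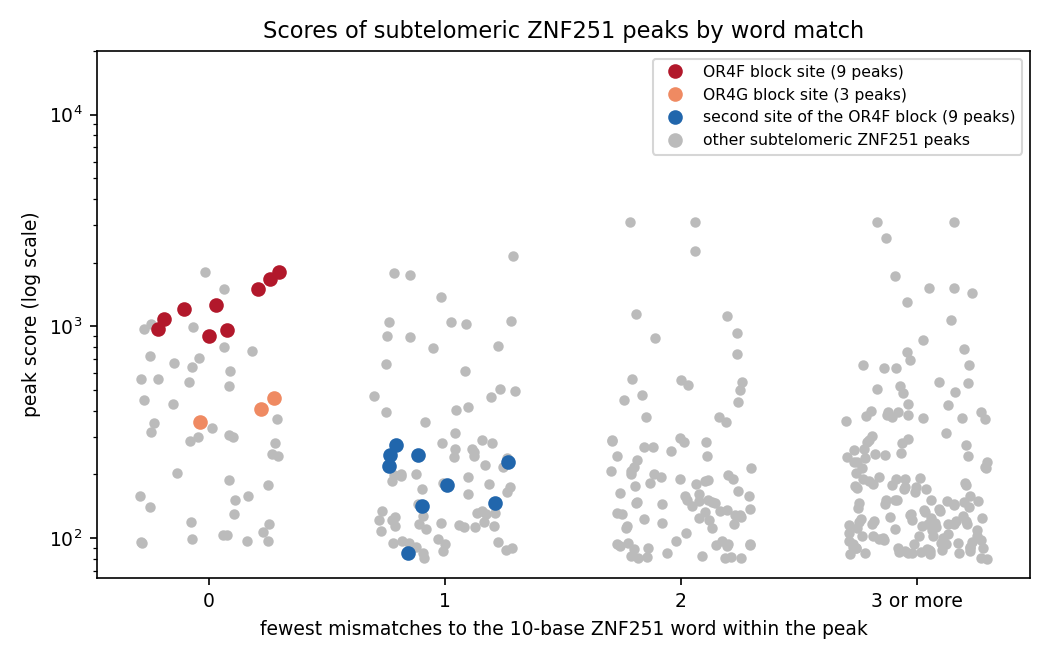
MACS score on a log scale of the 404 subtelomeric ZNF251 peaks, by the fewest mismatches to CTAAGTGAAA in the peak. Each peak is 1 point, spread sideways for clarity, with coloured points for peaks in copied blocks. Copies of the same sequence count as separate points. The median score was 364 without a mismatch, 194 with 1 and 152 with more; the 9 OR4F-block peaks, at 903.94 to 1801.45, stand in the first group and the 9 of the second site in the next.

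The other words were found at the ends as well, on fewer peaks. The ZNF160 word was in 15 of 91 subtelomeric peaks (16.5%), 20.2% of its other peaks and 0.44% of the tiles. The ZFP28 word was in 9 of 30 (30%), 22.5% and 0.266%, the ZNF578 word in 4 of 13 (1 of 10 outside the copy families), 54% and 0.202%, and the ZNF724P word in 5 of 14, 37.5% and 0.0853%. For ZNF763 the word AGCCGCCCCG was in 14.4% of the other peaks, in 0.0719% of the tiles and in 0 of the 16 subtelomeric ones, a count that allows a share of up to 20.6%. These letters only describe the sequence, and neither a match nor its absence shows whether the protein bound there.

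The end of 4q carried high-scoring peaks of ZNF251 and ZNF160 and the D4Z4 array. D4Z4 units each hold a copy of DUX4, which encodes a double homeobox transcription factor active in the early embryo, and contraction of the array on 4q underlies facioscapulohumeral dystrophy. ZNF763 had 5 peaks over D4Z4 sequence on 4q. The highest, 190.5, lay at DUX4L9, a copy on the minus strand, 101 kb from the end and apart from the array. This copy was 91.6 to 91.8% identical to the array copies on 4q. In the array the scores were 115.41 at DUX4L8, 120.75 at DUX4L7, 170.26 at DUX4L6, and 119.7 in a peak of 9520 bp. That peak covered DUX4L5, DUX4L4, DUX4L1 and DUX4. On 10q, whose end carries the homologous array, ZNF763 had 1, at DUX4L11 with 89.94. ZNF34 had 1 of its 2 subtelomeric peaks at DUX4L4 on 4q, with 127.97. Of the 9 copies of the repeat found at 4q, DUX4L9 included, 7 lay in a peak above 80 of either protein, and of the 6 at 10q 1 did. ZNF251 had 0 peaks above 80 at the 17 genes and pseudogenes of the DUX4 group.

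Farther in on 4q, FRG1-DT, a transcript divergent from the FRG1 gene, held a ZNF251 peak of 3100 at 242 kb (chr4:190802097-190802848) and a ZNF160 peak of 3100 at 202 kb (chr4:190842078-190843112). The score of 3100 recurred in 5 of the 613 peaks. It was also the highest score outside the windows for ZKSCAN7, ZNF34 and ZNF416, while the highest deposited score was 3233.06. Whether 3100 is a value set by the peak caller was not tested, so equal scores of 3100 need not mean equal signal. ZNF251 also had a peak of 2614.55 at 73.3 kb, near AGGF1P1, and at 10q, near AGGF1P2, a peak of 1510.56. The control peak of 55.86 lay in FRG1-DT too, at 187 kb, and overlapped neither.

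**Figure D5:**
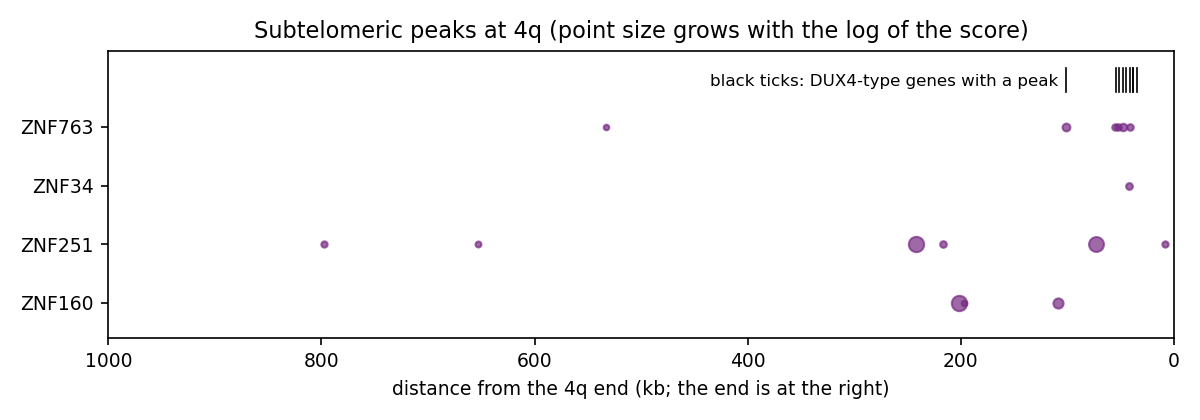
Subtelomeric KZFP peaks in the last Mb of 4q, placed by the distance of their midpoint from the end in kb, with 1 line per KZFP; points grow with the log of the score and black ticks mark DUX4-type genes with a peak. ZNF763 and ZNF34 peaks over D4Z4 stand at 41.5 to 101 kb with scores of 115.41 to 190.5. The peak at 101 kb lies over DUX4L9, apart from the array. The ZNF251 and ZNF160 peaks of 3100 stand at 242 and 202 kb.

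Over the genes that mark copied blocks, 35 of 91 in the windows overlapped a peak or had a start within 2500 bp of one, 22 of them with ZNF251 and 16 with another KZFP. They split by group. A peak was found for 11 of 17 OR4F genes and pseudogenes, all with ZNF251, for 11 of 17 of the DUX4 group, none with ZNF251, for 6 of 8 DDX11L pseudogenes, which derive from a DNA helicase gene, and for 2 of 4 FAM157 genes. No peak was found for any of 6 WASH, 5 FAM138, 10 CICP, 2 MIR1302 or 3 FRG2 genes, although these often lie in the same blocks, and 1 of 10 RPL23AP pseudogenes and 1 of 5 TUBB8 genes had one. Of all 682 protein-coding genes in the windows, 220 or 32.3% had a peak.

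Zinc finger genes, many of which stand in clusters near the ends of 12q and 19q, often carried ZNF251 peaks. Of 60 protein-coding zinc finger genes in the windows 29 had a peak, 27 with ZNF251 and 6, or 10%, with another KZFP. Over all 682 protein-coding genes of the windows these numbers were 220, 178 and 89, the last of them 13%. Among the ZNF251 peaks, 46 of 404 subtelomeric ones or 11.4% [8.46 to 14.9] were at such a gene, beside 1.79% of its other peaks and 1.99% of all. The windows were richer in these genes, which took 3.72% of their bases and 0.908% of bases elsewhere. Per Mb of zinc finger genes, ZNF251 had 29 peaks in the windows and 14.6 outside; per Mb of other sequence it had 8.74 and 7.32. On 12q the peaks stood in a row of neighbouring genes, with highest scores of 372.24 at ZNF605, 428.54 at ZNF84, 375.06 at ZNF140 and 330.85 at ZNF268. On 19q the highest were 1116.71 at ZNF544, 785.11 at ZSCAN22 and 507.11 at ZNF586. The gene of 1 KZFP profiled here, ZNF256 on 19q, carried a ZNF251 peak of 398.97, and the ZNF251 gene itself, on 8q, carried a peak of ZNF251 at 94.02 and 1 of ZNF160 at 164.95. The ZNF34 and ZNF446 genes, also in the windows, had none.

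Subtelomeric peaks were more often near a transcript start than other peaks, in windows that were themselves denser in starts. A start lay within 2500 bp of 221 of the 613 peaks, or 36.1% [32.2 to 40], of 20.3% of the other peaks and of 20.7% of all. Of the bases of the windows 32.6% were that close to a start, and of the bases outside 16%. For ZNF251 the shares of peaks were 39.6% in the windows and 23.3% outside. Its density near starts was 11.5 per Mb in the windows and 10.7 outside, and away from starts 8.51 and 6.75 per Mb. For ZNF160, 7.69% of the peaks in the windows and 7.79% of those outside were near a start, which made 0.504 peaks per Mb near starts in the windows and 1.07 outside; away from starts it had 2.93 and 2.41 per Mb. All 5 ZNF746 peaks lay near a start, as did 91.5% of its other peaks, at SPG7 (137.57), which encodes a mitochondrial protease, FAM234A (129.18), PHF10 (123.42), a subunit of a BAF remodelling complex, B4GALNT3 (92.51) and SPIRE2 (91.26).

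By position, 287 of the 613 peaks (46.8%) fell in introns, beside 51.9% of the other peaks. A further 196 (32%) lay between genes, beside 36.9%. The remaining peaks were in exons, 48 of non-coding transcripts, 41 in UTRs and 41 in coding exons. Exons of any kind held 21.2% of the subtelomeric peaks and 11.2% of the other peaks. The median GC content of the subtelomeric peaks was 43.6%, beside 38.6% for the other peaks, and their median length was 499 bp beside 458. Within single lists, the median score in the windows and outside was 179.06 and 184.85 for ZNF251, 161.13 and 218.23 for ZNF160, 210.13 and 154.12 for ZFP28, and 208.24 and 128.43 for ZNF578. They did not all share one base composition. All but 1 of the 16 ZNF763 peaks and all 5 ZNF746 peaks had a GC content above 60%, while 6 of the 14 ZNF724P peaks were below 30%. The median GC content of the ZNF763 peaks was 72.5% in the windows and 64.4% outside.

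Peaks of different KZFPs rarely coincided. The 613 peaks merged into 590 regions, of which 575 held 1 KZFP, 11 held 2, 1 held 3 and 3 held 4. Of the 15 shared regions 9 lay on acrocentric short arms. Overlap with another KZFP was seen for 38 of the 613 peaks or 6.2%, for 2.44% of the other peaks and for 2.52% of all. On acrocentric short arms it was 30.6% and at the telomeric ends 2.96%. The pair with the most overlapping peaks was ZKSCAN4 with ZNF160, with 4 of the 9 ZKSCAN4 peaks (44.4%) and 4 of the 91 of ZNF160 (4.4%). These overlaps lay at the tandem repeat on 12p and on the acrocentric short arms 21p and 22p. Among KZFPs with 1 or 2 peaks, both ZNF546 peaks overlapped ZNF251 and the 1 ZNF729 peak overlapped ZKSCAN4.

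The 5 regions with the most KZFPs, the last of them taken by its highest score from 11 regions tied at 2 KZFPs, were of different kinds. At MIR3648 and MIR3687 on 21p (chr21:9825435-9827942), a stretch of 70.7% GC, ZNF763 had its top-scoring subtelomeric peak at 1124.08, ZNF546 had 463.78, ZKSCAN7 372.17 and ZNF251 285.98. The internal repeat on 12p joined ZNF251, ZKSCAN4, ZNF160 and ZNF446. At FOXL3 on 7p (chr7:330929-331428), a forkhead gene with 76.8% GC over the region, ZNF251 had 240.32, ZNF546 120.15, ZNF850 97.13 and ZNF416 90.87. On 22p (chr22:16847851-16852454) there were 2 ZNF160 peaks of 175.37 and 146.66, ZKSCAN4 with 100.71 and ZNF416 with 94.08. On 14p (chr14:19001756-19002554) ZNF251 had 659.75 and ZNF578 319.99.

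The highest-scoring peaks come first for the KZFPs with at least 20 subtelomeric peaks. For ZNF251, 31 of 404 scored above 1000, and 4 reached 3100: beside the peak on 4q these were in an intron of PHRF1 on 11p (chr11:585022-585991), which encodes an E3 ubiquitin ligase, at PXMP2 on 12q (chr12:133268435-133272224), which encodes a peroxisomal membrane channel, and over MCM3AP and YBEY on 21q. For ZNF160 the peak on 4q was followed by 2311.55 on 15q (chr15:102136665-102137479), shown above, and 1725.07 in MTG1 on 10q, which encodes a mitochondrial GTPase. Of its 6 peaks on 5p, 4 lay in the palmitoyltransferase genes ZDHHC11 and ZDHHC11B. Of these, the peaks of 765.9 and 795.48 held the ZNF160 word with the substitution A10G. Those of 598.76 and 856.4 held it with G5C. The search for copies left out matches at the same end, so whether these 4 peaks are copies of fewer sites was not tested. ZFP28 had its highest peaks in introns, at BOK on 2q with 900.34, a gene of the BCL2 family, at FBRSL1 on 12q with 679.02 and at VIPR2 on 7q with 570.75, the gene of a receptor for vasoactive intestinal peptide.

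The KZFPs with fewer peaks are given by their highest alone. ZNF578 reached 1173.39 at the start of ANKLE2 on 12q, a gene for nuclear envelope reassembly after mitosis, ZNF724P 425.97 between genes on 22q, ZNF850 369.71 in HELZ2 on 20q, and ZNF446 274.3 at the start of GEMIN4 on 17p, which encodes a component of the SMN complex. ZNF34 had 177.39 in DIP2C on 10p. The highest of ZNF20 was 96.7 on 21p, of ZNF416 94.08 on 22p, of ZNF195 90.84 in TBCD on 17q, of ZNF729 90.7 on 14p and of ZKSCAN8 84.55 in RPH3AL on 17p, all close to the threshold. Across all KZFPs the lowest member scored 80.03 and the highest peak of the windows left out scored 79.95; 34 members scored 80 to 85, and 47 deposited peaks scored 75 to 80. The member farthest from an end was at 992174 bp and the nearest peak outside at 1005063 bp.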

How the data were processed

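Peak lists of 21 KZFP libraries and 293Tctrl were analysed, and the 2 total inputs were not used here. Per the submitters' processing notes, reads were mapped with Bowtie2 2.2.1 to hg19 (local alignment; the study's methods name another Bowtie2 release) and peaks called with MACS 1.4. ChIP-exo was called against a control sampled from all samples with duplicates kept, and ChIP-seq against total input after a mapping quality filter above 10; no such filter is stated for ChIP-exo, which bears on copied sequence. Deposited values are the authors' MACS score per peak; read depth was not given in the lists, and it limits how many peaks pass a score of 80 in each.

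From these lists, peaks were selected by midpoint, with coordinates counted from 1, and annotated with GENCODE release 44 mapped to GRCh37 (245096 transcripts) in Python 3.11.15. Copies were searched with blastn 2.17.0+ and intervals computed with scipy 1.17.1. Words were ranked on peaks outside the windows, central 300 bp against flanks at 1500 bp. A zinc finger gene was counted from 2500 bp before to 2500 bp after it. The code was tested on simulated data.

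With 1 library per KZFP there was no test. Named were the top peak of each KZFP, the top 3 for those with at least 20, the 5 regions with the most KZFPs, the 5 peaks nearest an end, all control peaks, peaks over genes of the profiled KZFPs, and the 5 ends with the most peaks or any with 0. Other named peaks, copy families, words, distance bins and zinc finger gene margins were chosen after values were seen. Members and lists were chosen with earlier results of these data known. Alternatives were other score thresholds, window sizes, start distances and copy identities, and leaving out ZNF251 or the acrocentric short arms. Some of the sequences examined are not reported here.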

Additional observations from a re-analysis of the deposited data

How the results depend on the processing

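The 6 KZFPs above the share of bases were the same with windows of 2 Mb and without the acrocentric short arms. Over all deposited peaks there were 14, above a score of 150 there were 4 (ZFP28, ZKSCAN4, ZNF251 and ZNF763), and with 500 kb windows 5, without ZFP28 and ZNF446 but with ZNF546. Under every alternative 0 lay below. Total peaks were 1397 over all deposited peaks, 331 above 150, 356 with 500 kb, 1099 with 2 Mb and 209 without ZNF251. Shared regions numbered 54, 3 and 8 over all deposited peaks, above 150 and without ZNF251, and 6 without the acrocentric short arms. Peaks with telomere-type repeats fell to 3 above 150. Peaks with a copy at another end numbered 442 over all deposited peaks, 105 above 150, 59 without ZNF251 and 105 at 95% identity. The share near a start was 29.2% without ZNF251, 24.3% within 1000 bp and 18.4% for protein-coding starts. Over all its deposited peaks 293Tctrl had 9 in the windows. The causes of the changes were not tested. Of 99 values recomputed, 71 stayed within the limits set and 28 moved. These limits were wide, since the fall from 6 to 4 KZFPs above the share of bases counted as staying. The share of a KZFP was judged against its interval with 1 Mb windows, also where the window size changed. Chosen after seeing the data, counting each copy family once gave 563 peaks and the same 6 KZFPs, leaving out D4Z4 changed none of the 6, and leaving out the mitochondrial-type peaks of ZNF446 left 5. No paired analysis was possible because each KZFP had 1 library and the labels give no replicate numbers.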
